A study of Mus musculus with 5 samples.

Results

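The adaptor proteins and kinases of innate immune signalling are encoded by 10 genes examined here, namely Mavs, Myd88, Ticam1, Irak2, Irak3, Irak4, Traf3, Traf6, Tbk1 and Ikbke. PU.1 binding at each was read from the counting windows in the gene span with 10 kb on each side, called the locus. All 10 loci held tested windows, out of 15001 protein-coding loci that did, and together they held 271 of 286435 tested windows and 51 of 60527 PU.1 regions. A region is a run of tested windows at most 100 bp apart. The cells were conventional dendritic cells (cDCs), known for antigen presentation, and plasmacytoid dendritic cells (pDCs), known for type I interferon production. All were generated from mice of the strain labelled C56BL/6 in culture with Flt3L, a cytokine that drives dendritic cell development. PU.1, an ETS-family transcription factor, was precipitated with antibody T-20 from 2 biological replicates of each cell type. A single input library, of chromatin without precipitation, came from cDCs. Genotype beyond the strain, age of the mice, and the way cDCs and pDCs were separated are stated nowhere in the labels. Totals over the listed windows were 11034858 and 11388554 counts in the cDC libraries, 8099633 and 6896416 in the pDC libraries and 2776490 in the input. They are not sequencing depth, which is unknown, and the pDC values rest on fewer counts.

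Pattern receptors pass their signal through a short chain of shared proteins. Toll-like receptors recruit Myd88 or Ticam1 (TRIF), cytosolic RNA sensors recruit Mavs on mitochondria, and the IRAK and TRAF proteins relay the signal to kinases that activate NF-kappaB and interferon regulatory factors. In pDCs the endosomal Toll-like receptors use Myd88, Irak4 and Traf6 to drive interferon, whereas Mavs and Ticam1 serve RNA sensing in many other cells. PU.1 binds purine-rich DNA around a GGAA core and is required for the development of dendritic cells.

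The 5 member promoters that overlapped a PU.1 region are shown because they are the start-site sequences the binding data bear on, and the Traf3 promoter is the only one of them whose region was called different between cell types. Each sequence runs 5′ to 3′ along its gene, from 250 bases before to 50 bases after the start given by RefSeq (GRCm38.p6), and capitals mark GGAA or its complement TTCC.
Traf3 promoter: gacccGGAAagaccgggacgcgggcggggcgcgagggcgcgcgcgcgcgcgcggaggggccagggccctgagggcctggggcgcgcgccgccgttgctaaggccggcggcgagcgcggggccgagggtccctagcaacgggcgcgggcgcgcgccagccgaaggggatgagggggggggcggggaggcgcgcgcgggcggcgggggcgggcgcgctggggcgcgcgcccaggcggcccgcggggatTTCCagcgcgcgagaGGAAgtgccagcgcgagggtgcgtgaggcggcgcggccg
Myd88 promoter: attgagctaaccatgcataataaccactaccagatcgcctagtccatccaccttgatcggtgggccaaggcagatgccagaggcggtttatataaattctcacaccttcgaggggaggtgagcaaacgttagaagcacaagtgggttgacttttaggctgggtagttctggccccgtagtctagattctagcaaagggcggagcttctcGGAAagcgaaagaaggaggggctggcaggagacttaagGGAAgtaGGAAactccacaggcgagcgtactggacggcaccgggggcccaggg
Ticam1 promoter: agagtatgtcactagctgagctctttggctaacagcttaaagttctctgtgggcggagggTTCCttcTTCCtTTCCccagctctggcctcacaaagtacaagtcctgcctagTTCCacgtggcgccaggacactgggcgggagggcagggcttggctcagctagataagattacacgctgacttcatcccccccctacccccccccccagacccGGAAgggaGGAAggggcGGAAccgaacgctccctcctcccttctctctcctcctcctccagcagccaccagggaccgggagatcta
Irak2 promoter: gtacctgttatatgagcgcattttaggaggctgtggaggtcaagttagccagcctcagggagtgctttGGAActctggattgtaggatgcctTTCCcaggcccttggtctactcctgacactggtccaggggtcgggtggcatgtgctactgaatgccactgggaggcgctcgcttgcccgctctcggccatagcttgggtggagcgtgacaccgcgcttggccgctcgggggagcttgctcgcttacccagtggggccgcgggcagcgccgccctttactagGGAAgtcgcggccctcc
Irak4 promoter: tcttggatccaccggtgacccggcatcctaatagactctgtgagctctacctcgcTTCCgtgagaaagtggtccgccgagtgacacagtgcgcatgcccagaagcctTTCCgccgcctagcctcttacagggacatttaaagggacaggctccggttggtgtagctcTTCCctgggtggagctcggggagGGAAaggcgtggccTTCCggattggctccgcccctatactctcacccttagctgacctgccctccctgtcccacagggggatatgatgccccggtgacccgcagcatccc

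Of 11 member promoter windows (Irak3 has 2), these 5 overlapped a region, as did 17.5% of all 32851 promoter windows in the table. The Traf3 promoter was the only one of the 11 that held GAGGAAGT, the core with the flanking bases that PU.1 prefers, which stood in 3.2% of all promoter windows and in 8.11% of those with a region. The match began 9 bases after the Traf3 start, at chr12:111166379-111166386, and 27 bases before the centre of the highest PU.1 window there. The Traf3 promoter also had a GC content of 84% and 59 CpG dinucleotides, against medians of 52.7% and 7 over all promoter windows. Over the promoter windows with a region the medians were 60.3% and 21. GAGGAA, which the longer motif contains, stood also in the promoters of Ticam1, Ikbke, Traf6 and the outer promoter of Irak3, and in 28.3% of all windows. Both strands were searched, and GGAA itself stood in all 11 and in 96% of all windows. These matches describe letters and not binding sites.

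At all but 5 of the 51 regions no difference between the cell types passed the test, and those 5 lay at 5 different genes. As whole loci, Mavs and Irak2 were higher in cDCs, no locus was higher in pDCs, and 8 did not pass the quasi-likelihood test of edgeR at an adjusted p of 0.05. Over all loci 17.7% were called, with 8.27% higher in cDCs and 9.39% in pDCs, so 2 of 10 is near the background. More bound cells in a sample and more PU.1 per cell cannot be told apart in these bulk libraries. At an unadjusted p under 0.05 the edgeR test gave 3 loci, Mavs, Irak2 and Ikbke, all on the cDC side. The share of all loci under that unadjusted threshold was not computed, here or for the other fits. These 3 are therefore not read as a trend of the members. The DESeq2 Wald test, at an adjusted p of 0.05, called Mavs alone among the members and 2342 of all 15001 loci. Of the 51 regions, 5 passed, a share of 9.8% against 14.5% of all regions. They lay 1.04 kb after the Mavs start, 26 kb into Irak2, 18.6 kb into Irak3, at the Traf3 start and 9.91 kb before Traf6. Those at Irak3 and Traf3 were higher in pDCs, and the other 3 in cDCs. Over all regions 6.00% were higher in cDCs and 8.46% in pDCs. Log2 folds are given as pDC minus cDC ± the standard error, from n = 2 libraries of each cell type. Positions refer to mm10.

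**Figure D1:**
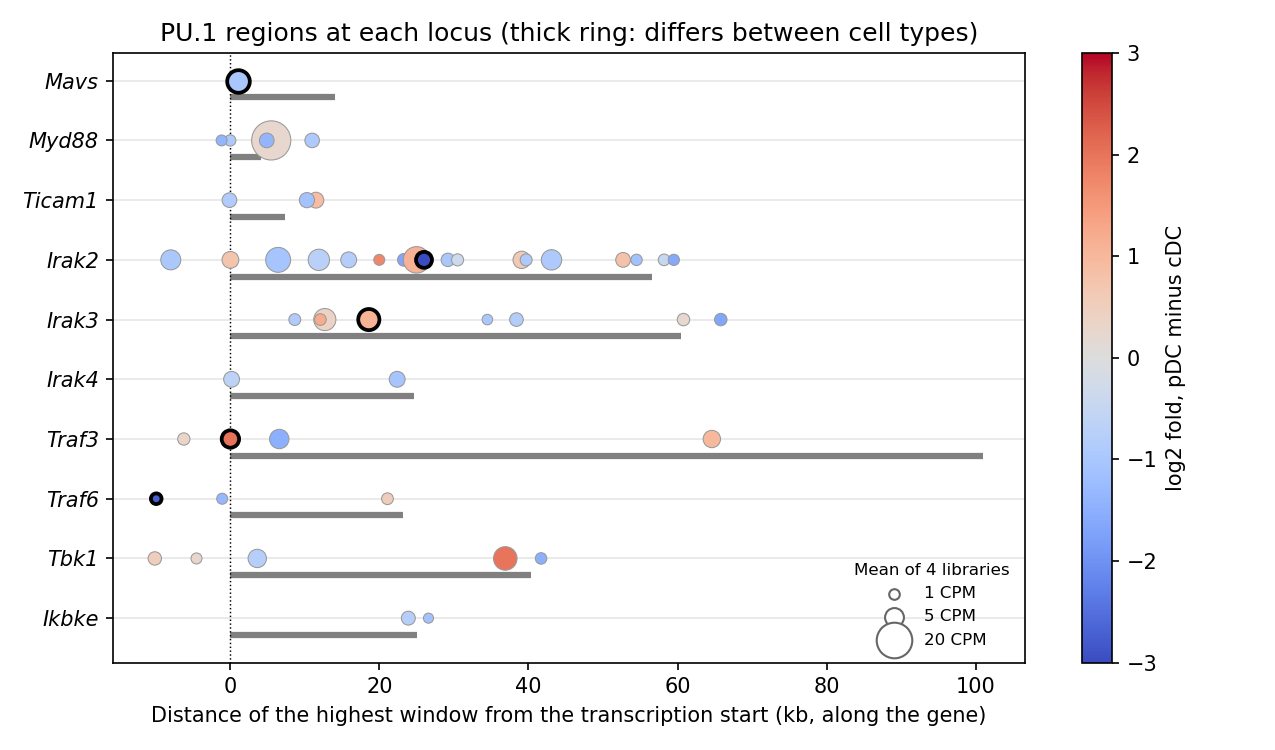
All 51 PU.1 regions of the 10 loci by the distance of their highest window from the transcription start in kb, measured along the gene, with grey bars for the gene span. Circle area follows the mean CPM of the highest window, colour the log2 fold (pDC minus cDC), and thick rings mark the 5 regions that passed, 3 in blue (higher in cDCs) and 2 in red (higher in pDCs).

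The median log2 fold of the 10 loci was -0.37, against 0.01 over all loci, and 8 of the 10 lay below 0. In 6 loci both cDC values lay above both pDC values, an order found in 29.2% of all loci, and in 1, Irak3, both pDC values lay above both cDC values (29.5% of all). Among the 51 regions 33 had a log2 fold below 0 at their best window, the window with the smallest p. The share of all regions below 0 was not counted, and 18 of the 51 lay at Irak2 alone. The median at the best window was -0.82, against 0.12 over all regions. When libraries were scaled by size and not by TMM, the median over all regions moved from 0.12 to -0.319. That of the 51 regions moved from -0.82 to -0.948, and that over all windows from 0.01 to -0.115. The split of called regions then turned from 5123 higher in pDCs and 3634 in cDCs to 4218 and 5057.

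Levels are compared between genes as CPM (counts scaled to a common library total) per kb of locus, with the counts summed over all loci as the denominator after TMM scaling. Myd88 had the highest level per kb, between 6.21 and 7.30 CPM per kb over the 4 libraries, followed by Irak2 with 4.21 to 5.34. That order rests on the division by length, since the Myd88 locus has 24.08 kb and the Irak2 locus 76.56 kb. In CPM of the whole locus Irak2, at 322 to 409, lay above Myd88, at 149 to 176. A middle group came next and overlapped throughout, with Ticam1 at 0.966 to 1.75, Tbk1 at 1.07 to 1.62, Irak3 at 1.10 to 1.46 and Mavs at 0.647 to 1.46. Irak4 at 0.656 to 0.970 overlapped Mavs above it and Traf3, at 0.463 to 0.771, below it. Ikbke (0.169 to 0.328) and Traf6 (0.138 to 0.275) were lowest, overlapped each other and lay below all other members in every library. No member locus held a window with 1000 or more input counts, the mark of the repeat stretches in these libraries.

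**Figure D2:**
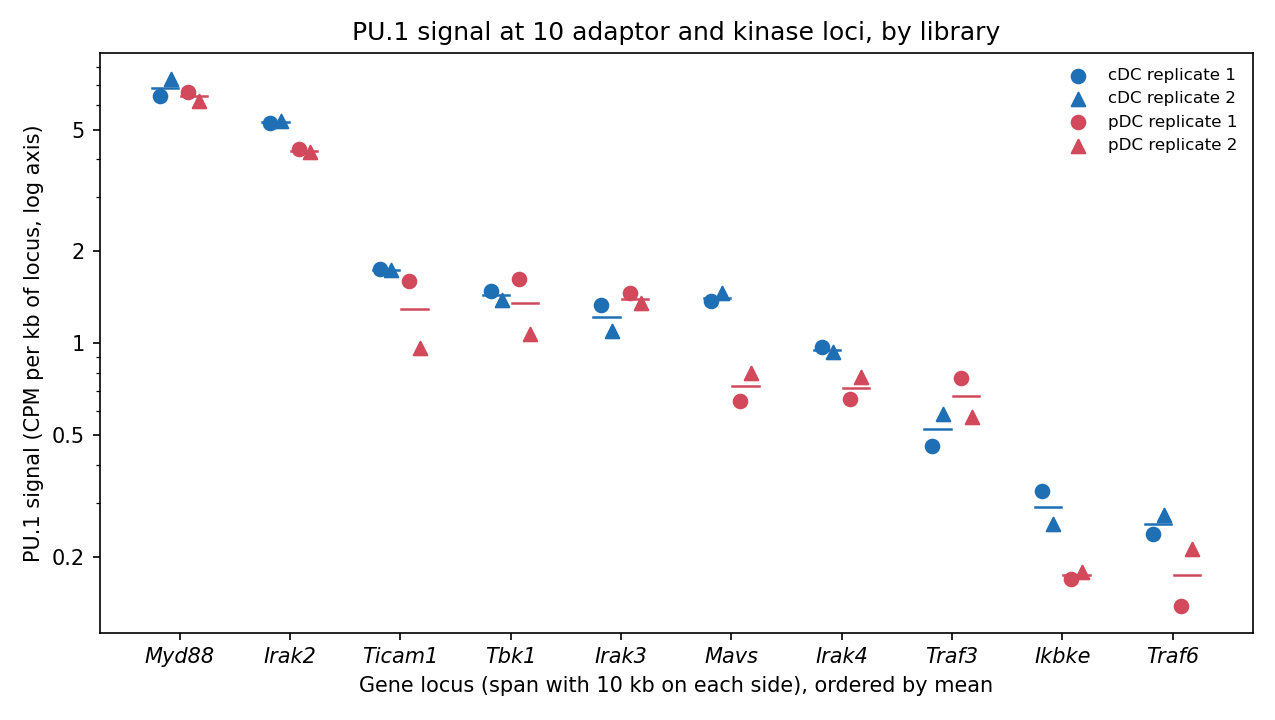
PU.1 signal of the 10 loci in each library, in CPM per kb of locus on a log axis, ordered by the mean of the 4 libraries, with short lines for the mean of each cell type. Both cDC values lie above both pDC values at 6 loci, among them Mavs and Irak2, the called ones, while the pDC replicates lie apart at Ticam1 (1.60 and 0.966) and Tbk1 (1.62 and 1.07).

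Among the adaptors, Mavs, which relays signals of RIG-I-like receptors, held the clearest difference (chromosome 2, 131234063 to 131248025). Its locus had 46.4 and 49.5 CPM in cDC replicates 1 and 2 and 22.0 and 27.2 CPM in pDC replicates 1 and 2. Both cDC libraries were about level and both pDC libraries lay below them. The locus was 1.96-fold higher in cDCs, at a log2 fold of -0.97 ± 0.23 (edgeR adjusted p = 0.00854). All of that signal came from 1 region, chr2:131234951-131235260, inside the gene span and shared with no other locus. At its highest window, 1.04 kb after the start, there were 101 and 120 counts in cDCs, 38 and 35 in pDCs and 2 in the input. As a region it had a log2 fold of -1.01 ± 0.29 at the best window (edgeR adjusted p = 0.0464), so locus and region are the same signal counted differently. The locus call ended without cDC replicate 1 (-1.01, edgeR adjusted p = 0.0708) and without cDC replicate 2 (-0.92, 0.110). It also ended with flanks of 50 kb (-0.21, 0.280). The region lost its call without cDC replicate 1 (-1.12), cDC replicate 2 (-0.88) or pDC replicate 1 (-0.72), and in the DESeq2 Wald test (adjusted p = 0.472). In each of these fits both measures stayed on the cDC side.

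Myd88, the adaptor of most Toll-like receptors and of the interleukin-1 receptor, carried the strongest region of all members (chromosome 9, 119335934 to 119340018). The region chr9:119334301-119334710 lay 1.22 kb beyond the 3′ end of the gene span and 5.51 kb after the start. Its highest window had 20.1 and 25 CPM in cDCs and 29.0 and 23.6 CPM in pDCs, where window CPM values have the counts over all tested windows as denominator. Of all regions in the data, 99.5% were lower at their highest window. The groups overlapped, and the log2 fold was 0.25 ± 0.23 (edgeR adjusted p = 0.876). This region held 68.2% of the locus counts in cDCs and 81.1% in pDCs. The whole locus had 155 and 176 CPM in cDCs and 160 and 149 CPM in pDCs, a log2 fold of -0.09 ± 0.13 (edgeR adjusted p = 0.684). Counted over the gene span alone, without the strongest region, the locus lay at -0.997 and did not pass either (edgeR adjusted p = 0.276). That value rests on a single 10 bp window at the start, with 23 and 14 counts in cDCs and 9 and 3 in pDCs. All 31 tested windows are shared with the loci of Oxsr1 or Acaa1a, so the locus value is not that of Myd88 alone. The other 4 regions were weak, at 2.69 CPM or less on average, and the one at the start had at most 23 counts in any library.

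Ticam1, the adaptor of Tlr3 and of the endosomal arm of Tlr4, had 3 regions and a locus value on the cDC side that did not pass (chromosome 17, 56269462 to 56276767). The locus had 47.7 and 47.5 CPM in cDCs and 43.8 and 26.4 CPM in pDCs, at a log2 fold of -0.43 ± 0.24 (edgeR adjusted p = 0.249). The cDC libraries were level and the pDC libraries were not, with replicate 2 the lowest. Without pDC replicate 1 the locus passed towards cDCs at -0.85 (edgeR adjusted p = 0.00224), and without pDC replicate 2 it lay at -0.13 (0.649). The region over its promoter, chr17:56276701-56276960, had 2.56 and 3.63 CPM in cDCs and 3.03 and 1.45 CPM in pDCs at the highest window, with overlapping groups (edgeR adjusted p = 0.795). The strongest of the 3, at 3.26 CPM on average, lay 4.10 kb beyond the gene span and nearer to Fem1a. All 16 tested windows are shared with Fem1a or Plin3.

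In the IRAK family, Irak2 held the richest locus, with 107 tested windows in 18 regions against a median of 13 windows over all loci (chromosome 6, 113638467 to 113695026). Irak2 is a member that sustains signalling after Irak4 has acted. Its locus had 402 and 409 CPM in cDCs and 330 and 322 CPM in pDCs, so replicates lay close together and the groups apart. The difference was small, 1.24-fold higher in cDCs at a log2 fold of -0.31 ± 0.10 (edgeR adjusted p = 0.0426). The call ended without cDC replicate 1 (-0.33, edgeR adjusted p = 0.428) or cDC replicate 2 (-0.30, 0.450), by the gene span alone (-0.285, 0.0755), by nearest gene (-0.26, 0.101), with flanks of 50 kb (-0.24, 0.0740) and in the DESeq2 Wald test (-0.32, adjusted p = 0.0525). Of its windows 28 are shared with Vhl or Tatdn2, and the region in the Vhl span (7.96 kb before the Irak2 start) had 6.77 and 7.69 CPM in cDCs and 4.22 and 4.18 CPM in pDCs.

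Of the 18 Irak2 regions 1 was called. At chr6:113664401-113664660, 26 kb after the start and inside the gene span, the highest window had 71 and 62 counts in cDCs and 2 and 8 counts in pDCs. In CPM these are 6.49 and 5.36 in cDCs and 0.264 and 1.29 in pDCs. Both cDC libraries were several times above both pDC libraries. The input, a library with a smaller total, had 4 counts there. The log2 fold was -2.99 ± 0.46, a 7.97-fold difference (edgeR adjusted p = 0.000303). This region passed under every alternative that was run, with log2 folds from -4.43 without pDC replicate 2 to -2.19 without pDC replicate 1.

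The next region towards the start, at 25 kb, was not called. It spans chr6:113662951-113663610 and has the highest window of the locus, with 11.4 and 9.85 CPM in cDCs and 12.5 and 9.17 CPM in pDCs, so the groups overlapped. A smaller maximum inside it, at its best window, had 2.56 and 2.76 CPM in cDCs and 6.59 and 4.83 CPM in pDCs. There the log2 fold was 1.11 ± 0.32, but the region did not pass (edgeR adjusted p = 0.0780), except without pDC replicate 2 (1.30, edgeR adjusted p = 0.00647). Over this short stretch the order of the cell types thus ran from pDCs above, to level, to cDCs above, although a difference between the neighbouring regions was not tested. Another region that did not pass, 20 kb after the start, lay on the pDC side, with 0.457 and 0.605 CPM in cDCs and 1.45 and 1.93 CPM in pDCs (1.75 ± 0.60, edgeR adjusted p = 0.0517). Its highest window held only 5 and 7 counts in cDCs, 11 and 12 in pDCs and 2 in the input. The region was above input in neither cell type. It was called when windows were joined at 500 bp. The region over the Irak2 promoter was nearly level, with 3.84 and 4.06 CPM in cDCs and 3.82 and 3.38 CPM in pDCs (edgeR adjusted p = 0.850). The called region gave 7.47% of the locus counts in cDCs and 1.35% in pDCs. With its windows left out, an alternative chosen after seeing the data that must move the fold towards 0, the locus lay at -0.22 ± 0.10 (edgeR adjusted p = 0.151).

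**Figure D3:**
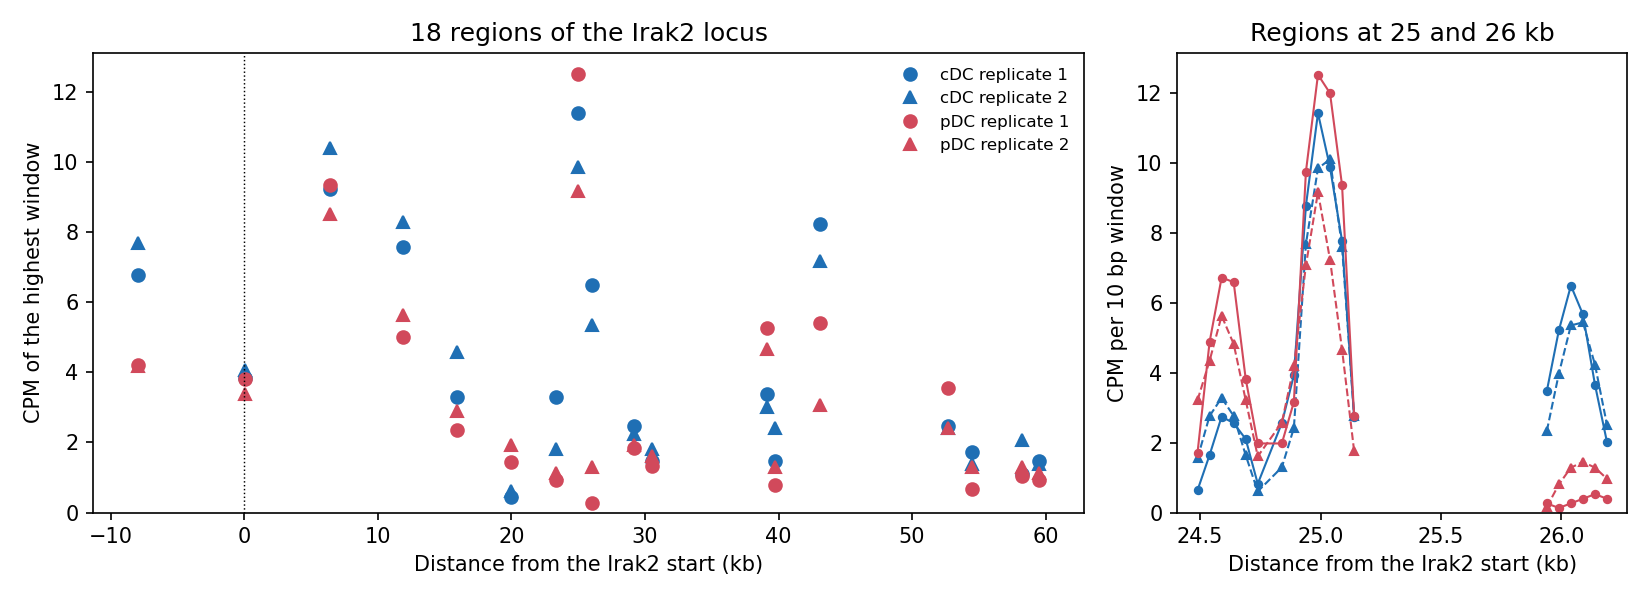
Left, CPM of the highest window of each of the 18 Irak2 regions by distance from the start in kb, with 1 marker per library. Right, CPM of each 10 bp window around 25 and 26 kb, where the cDC lines peak at 6.49 and 5.44 CPM near 26 kb and the pDC lines reach at most 1.45 CPM, while all 4 libraries peak between 9.17 and 12.5 CPM at 25 kb.

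Irak3, also called IRAK-M, restrains Toll-like receptor signalling and is known from monocytes and macrophages (chromosome 10, 120141648 to 120202130). Its 8 regions lay in no locus but its own. The locus had 107 and 88.7 CPM in cDCs and 117 and 108 CPM in pDCs, at a log2 fold of 0.21 ± 0.15 that did not pass (edgeR adjusted p = 0.396). The region chr10:120183401-120183660, 18.6 kb after the outer start, was 2.13-fold higher in pDCs. Its highest window had 52 and 42 counts in cDCs, 84 and 41 in pDCs and 1 in the input. After TMM scaling these became 4.76 and 3.63 CPM in cDCs and 11.1 and 6.60 CPM in pDCs. Replicate 1 was the higher library in both cell types, and the groups did not overlap after scaling. The log2 fold was 1.09 ± 0.29 (edgeR adjusted p = 0.0299). The call was lost without cDC replicate 1 (1.28, edgeR adjusted p = 0.141), cDC replicate 2 (0.90, 0.424) or pDC replicate 1 (0.66, 0.316), with library-size scaling (0.97, 0.0618) and in the DESeq2 Wald test (1.09, adjusted p = 0.353). The strongest Irak3 region, 12.7 kb after the start at chr10:120189301-120189560, had 6.49 and 6.31 CPM in cDCs and 9.36 and 6.60 CPM in pDCs and did not pass (0.38 ± 0.27, edgeR adjusted p = 0.725). Neither Irak3 promoter overlapped a listed window.

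Irak4, the kinase that starts the relay from Myd88, had 2 regions, and neither passed (chromosome 15, 94543613 to 94568317). The locus had 43.3 and 42 CPM in cDCs and 29.3 and 34.6 CPM in pDCs, all cDC values above all pDC values, at a log2 fold of -0.42 ± 0.22 (edgeR adjusted p = 0.209). At its promoter, in chr15:94543551-94544010, the highest window had 2.74 and 3.46 CPM in cDCs and 3.03 and 3.86 CPM in pDCs, which overlapped. The second region, 22.4 kb after the start at chr15:94565951-94566160, had 4.66 and 4.23 CPM in cDCs and 1.85 and 2.41 CPM in pDCs (-1.07 ± 0.36, edgeR adjusted p = 0.123). Without pDC replicate 2 both the locus (-0.56, edgeR adjusted p = 0.0408) and the second region (-1.26, 0.0241) passed towards cDCs. Of its 15 tested windows, 10 are shared with Pus7l.

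Traf3 and Traf6 are ubiquitin ligases of the TRAF family. Traf3 is required for type I interferon induction and restrains the alternative NF-kappaB pathway, and Traf6 links Myd88 and the IRAK proteins to NF-kappaB. At Traf3 (chromosome 12, 111166321 to 111267155) the region over the start, chr12:111166351-111166510, was higher in pDCs. This is the promoter printed above with GAGGAAGT. Its highest window had 17 and 26 counts in cDCs, 65 and 26 in pDCs and 0 in the input, which is 1.55 and 2.25 CPM in cDCs and 8.57 and 4.18 CPM in pDCs. The groups did not overlap, and pDC replicate 1 lay well above pDC replicate 2. At the best window the log2 fold was 2.02 ± 0.42 (edgeR adjusted p = 0.00260). Without pDC replicate 1 it fell to 1.16 and still passed (edgeR adjusted p = 0.0396), and without pDC replicate 2 it was 2.51. The call ended without cDC replicate 1 (1.90, edgeR adjusted p = 0.0505) and in the DESeq2 Wald test (2.01, adjusted p = 0.0584).

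Other Traf3 regions ran both ways without passing in the fit to all PU.1 libraries. The strongest, 6.59 kb after the start, had 5.67 and 7.34 CPM in cDCs and 4.88 and 3.54 CPM in pDCs (-1.52 ± 0.57 at the best window, edgeR adjusted p = 0.238). One 64.6 kb into the gene had 2.65 and 3.02 CPM in cDCs and 5.93 and 4.83 CPM in pDCs (1.00 ± 0.33, edgeR adjusted p = 0.112). That region was called without pDC replicate 2. The locus as a whole had 55.9 and 70.7 CPM in cDCs and 93.1 and 69.4 CPM in pDCs, in overlapping groups, the log2 fold being 0.36 ± 0.19 (edgeR adjusted p = 0.215). It passed towards pDCs without pDC replicate 2 (0.54, edgeR adjusted p = 0.00286). With the start region left out, again an alternative chosen after seeing the data that must move the fold towards 0, the locus lay at 0.01 ± 0.20 (edgeR adjusted p = 0.975). No Traf3 window is shared with another gene.

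Traf6 had little PU.1 signal in either cell type (chromosome 2, 101678420 to 101701668). Its locus had 10.2 and 11.9 CPM in cDCs and 5.98 and 9.18 CPM in pDCs, at a log2 fold of -0.56 ± 0.37 (edgeR adjusted p = 0.338). A region of 60 bp, chr2:101668451-101668510, 9.91 kb before the start and at the edge of the locus, was higher in cDCs. It had 20 and 17 counts in cDCs, 1 and 4 in pDCs and 0 in the input at its highest window. The log2 fold was -2.76 ± 0.72 (edgeR adjusted p = 0.0171), a value that rests on few counts and 2 windows. That call was lost without cDC replicate 1 (-2.67, edgeR adjusted p = 0.367), cDC replicate 2 (-2.83, 0.176) or pDC replicate 1 (-2.23, 0.122) and in the DESeq2 Wald test (-2.82, adjusted p = 0.353). Without pDC replicate 2 it was -3.44. With this region left out, an alternative chosen after seeing the data that must move the fold towards 0, the locus lay at -0.08 ± 0.40 (edgeR adjusted p = 0.923). The strongest region, 21.1 kb after the start inside the gene, had 1.01 and 1.30 CPM in cDCs and 1.58 and 1.77 CPM in pDCs (edgeR adjusted p = 0.741). Its highest window held 11 and 15 counts in cDCs, 12 and 11 in pDCs and 4 in the input. By the comparison with input given below, this region was above input in neither cell type.

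**Figure D4:**
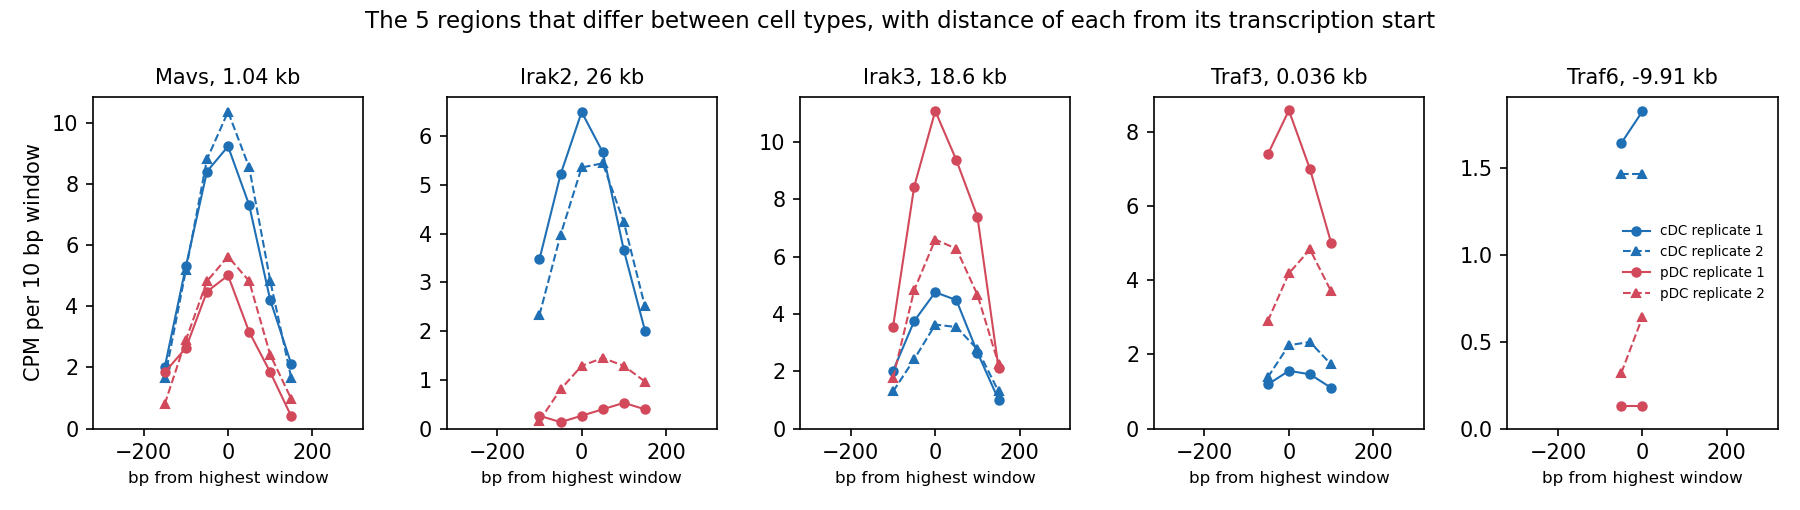
CPM of each 10 bp window in the 5 regions that passed, by distance in bp from the highest window, with solid lines and circles for replicate 1 and dashed lines and triangles for replicate 2. Both cDC lines lie above both pDC lines at Mavs, Irak2 and Traf6 at the highest window and both pDC lines lie above at Irak3 and Traf3, with pDC replicate 1 far above pDC replicate 2 at Traf3 (8.57 and 4.18 CPM) and Irak3 (11.1 and 6.60 CPM).

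Tbk1 and Ikbke encode related kinases that phosphorylate interferon regulatory factors Irf3 and Irf7. The Tbk1 locus had 89.6 and 83.6 CPM in cDCs and 97.6 and 64.7 CPM in pDCs, in overlapping groups, the log2 fold being -0.09 ± 0.19 (chromosome 10, 121546455 to 121586794, edgeR adjusted p = 0.807). Its direction hung on the pDC libraries, since it lay at -0.42 without pDC replicate 1, then called higher in cDCs (edgeR adjusted p = 0.0489), and at 0.16 without pDC replicate 2 (0.426). The strongest region, chr10:121549751-121550060, 36.9 kb after the start, had 7.87 and 7.95 CPM in cDCs and 9.63 and 7.56 CPM in pDCs at its highest window. At its edge, the best window had 7 and 4 counts in cDCs against 20 and 8 in pDCs, a log2 fold of 2.01 ± 0.57 that did not pass for the region (edgeR adjusted p = 0.0638). It passed without pDC replicate 2 (2.40, edgeR adjusted p = 0.00313). A region 3.64 kb after the start separated the pDC replicates, at 6.59 and 1.61 CPM, while cDCs had 5.85 and 4.66 CPM (edgeR adjusted p = 0.997). It was called, as higher in cDCs, without pDC replicate 1. Of the 24 tested windows 13 are shared with Xpot. No tested window overlapped the Tbk1 promoter.

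Ikbke, which encodes the inducible kinase IKK-epsilon, had the fewest windows, 5 in 2 regions (chromosome 1, 131254600 to 131279601). The locus had 14.7 and 11.6 CPM in cDCs and 7.63 and 8.01 CPM in pDCs. Both cDC libraries lay above both pDC libraries, but the log2 fold of -0.75 ± 0.34 did not pass (edgeR adjusted p = 0.151). The main region, chr1:131255601-131255760, lay 23.9 kb after the start, near the 3′ end, with 38 and 27 counts in cDCs, 14 and 10 in pDCs and 2 in the input (edgeR adjusted p = 0.402). It gave 89.8% of the locus counts in cDCs and 92.4% in pDCs. Of the 5 tested windows 1 is shared with Rassf5.

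Against the input, 32 of the 51 regions held at least 1 window at 2-fold or more in cDCs and 17 in pDCs (edgeR adjusted p under 0.05), with 16 regions in common. Over all regions the shares were 45.7% in cDCs and 41.5% in pDCs, while those of the members were 62.7% and 33.3%. Each of the 5 called regions was above input in the cell type where it was higher. For the Irak2 region at 26 kb that held at 1 of its 6 windows, and input counts there reached 6. In all, 18 of the 51 regions were above input in neither cell type, a share not counted over all regions. Among them were both Ikbke regions and the strongest Traf6 region, at 21.1 kb. Input counts at the highest windows were between 0 and 5 for the regions named here, and the scale of that library decides these counts. With library totals taken outside the repeat windows, which held 74.6% of the input counts, 1 member region stayed above input in each cell type, the strongest one at Myd88, and none of the 5 called regions did. Over all regions 3.03% in cDCs and 3.56% in pDCs did.

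A list of 35 other genes of the same pathways was set beside the members, and 34 had a tested window. Of these, 3 passed towards cDCs, 1 passed towards pDCs and 30 did not pass, a share below the 17.7% of all loci, and their median log2 fold was -0.06. Ripk1, a kinase of death receptor and Ticam1 signalling, lay at -1.15 ± 0.26 (edgeR adjusted p = 0.00705). Its libraries had 32.2 and 32.8 CPM in cDCs and 15.1 and 14.3 CPM in pDCs. Tab1, a partner of the kinase Tak1 downstream of Traf6, lay at -1.17 ± 0.29 (edgeR adjusted p = 0.0131), from 41.1 and 39.6 CPM in cDCs and 12.1 and 24.0 CPM in pDCs. Dhx58, the RIG-I-like receptor LGP2 that acts upstream of Mavs, lay at -0.58 ± 0.19 (edgeR adjusted p = 0.0449), from 90.8 and 81.5 CPM in cDCs and 48.3 and 67.4 CPM in pDCs. On the pDC side Peli2, a ubiquitin ligase of IRAK proteins, lay at 0.50 ± 0.12 (edgeR adjusted p = 0.0105), from 136 and 134 CPM in cDCs and 194 and 189 CPM in pDCs. Groups did not overlap at any of these 4, which were named because they passed in the same libraries. Over all loci 58.7% had groups that did not overlap. The calls of Ripk1, Peli2 and Dhx58 ended without cDC replicate 1 (-1.16, 0.51 and -0.50) or cDC replicate 2 (-1.13, 0.49 and -0.65), that of Tab1 without cDC replicate 1 (-1.14), and that of Dhx58 also without pDC replicate 1 (-0.35). Without pDC replicate 2 Tab1 lay at -1.75. With flanks of 50 kb the calls of Ripk1 (-0.04), Tab1 (-0.45) and Dhx58 (-0.26) ended. For Dhx58 the call ended too when only windows inside the span (-0.55) or nearest to the gene (-0.58) were summed. All windows of Ripk1 and Dhx58 are shared with other genes.

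Binding at marker genes was compared because ChIP-seq does not measure expression. Of 10 cDC marker loci 4 were higher in cDCs and 0 in pDCs. Of 9 measured pDC marker loci 5 were higher in pDCs and 1, Pacsin1, in cDCs. Over all loci 8.27% were higher in cDCs and 9.39% in pDCs. All windows of the called pDC markers Bst2, Ly6d and Spib are shared with other genes. Of 9 measured marker loci of B cells, T cells, macrophages, neutrophils and erythroid cells, 2 (Pax5 and Ly6g) were higher in pDCs and 0 in cDCs. Ly6g rests on 3 windows, at 1.98 and 1.87 CPM in cDCs and 6.13 and 9.18 CPM in pDCs. The summed signal of that last list was 473 and 446 CPM in cDCs and 589 and 567 CPM in pDCs. Ncr1, a marker of natural killer cells, had no tested window. Among all called marker loci, H2-Ab1, Cd86, Bst2, Pacsin1 and Ly6g lost their calls without cDC replicate 1 and also without cDC replicate 2. By the gene span alone Spib (0.83) and Dntt (0.43) lost theirs, and H2-Ab1, Ly6d, Pacsin1 and Ly6g had no tested window. By nearest gene the calls of Spib (0.86) and H2-Ab1 (-0.46) ended. With flanks of 50 kb those of Pacsin1 (-0.36) and Ly6g (-0.30, its sign turned) ended. Calls were also gained, as at Clec9a by the gene span alone (-0.97). The part of other cells in the differences at the member loci was not tested.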

How the data were processed

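The deposited values are read counts per 10 bp window in 5 libraries, not normalised by the authors as far as the files show. Per the submitters' processing notes Subread 1.4.4 and build mm10 were used. Which step Subread did, read extension, filters and the choice of windows are stated neither in the labels nor in the files. Windows stand on a 50 bp grid and the smallest sum over libraries was 33 counts, so weak sites are not listed, and a read, if extended, can fall in several windows. The 5 single-library files equalled the series table. Windows were kept by filterByExpr at a minimum count of 10 (286435 of 329996). Cell types were compared in edgeR 4.0.16 (R 4.3.3, limma 3.58.1, GenomicRanges 1.54.1), quasi-likelihood test, TMM scaling, no covariate beside cell type, p-values adjusted by Benjamini-Hochberg over all loci or regions. The coefficient of variation was 0.159. SE values are implied by the F statistic. Locus counts are sums of tested windows over the gene span with 10 kb on each side. Spans of 21900 protein-coding genes come from RefSeq GRCm38.p6, whose coordinates are those of mm10, without exons or UTRs, so positions are given only against spans and starts. For Irak3 the outer start was used. Regions join windows at most 100 bp apart, were split at 5000 bp, and combine window p-values by the Simes method, with the direction of the best window. For PU.1 over input, all 5 libraries were fitted together, each scaled to its total over windows. The single input, from cDCs, served both cell types and was taken to vary as much as the others. DESeq2 1.42.0 was an alternative test. In simulated counts for 15001 loci the test recovered 63 of 100 loci changed by 2-fold and 98 of 100 changed by 4-fold, with 2 false calls. These counts concern loci, all given the same coefficient of variation. They hold for that setting only and do not measure false calls in the real libraries. With 2 libraries against 2 an exact permutation test cannot go below a two-sided p of 0.333, so no single value was tested alone. Named were all 10 members, the strongest and every called region of each, genes that share their windows, and the called genes of the pathway list. Members and lists were chosen with earlier results of these data known. Regions of Myd88, Ticam1, Irak2, Irak4, Traf3 and Tbk1 described beyond that rule were chosen after their values were seen.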

Additional observations from a re-analysis of the deposited data

How the results depend on the processing

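Leaving out each PU.1 library in turn, the 2648 called loci ranged from 882 to 5404 and the 8757 called regions from 3031 to 15662. The 2 called member loci ranged from 0 to 4 and the 5 called member regions from 1 to 11, in each case lowest without cDC replicate 1 (for the member loci also without cDC replicate 2, where 1 had an unadjusted p under 0.05 in either fit). In those fits the lone library left of a cell type was assumed to vary like the other cell type. The member regions above input ranged from 22 to 35 in cDCs and from 18 to 19 in pDCs. With library-size scaling 5 member regions were called, but the Irak3 region at 65.8 kb replaced that at 18.6 kb. With windows joined at 500 bp 6 were called, the added one being the Irak2 region at 20 kb. The DESeq2 Wald test called 1884 regions, 1 member region (Irak2 at 26 kb) and 1 member locus (Mavs). Called member loci numbered 1 (Mavs) by the gene span alone and by nearest gene, and 0 with flanks of 50 kb, where 3 members had an unadjusted p under 0.05. With library totals outside the repeat windows 1 member region was above input in cDCs and 1 in pDCs. The labels do not say whether same-numbered libraries of the cell types were paired. The deviations of same-numbered libraries had a correlation of -0.00669 over loci. That value cannot decide the pairing, since each cell type gives a single difference between replicates. With the replicate block 1 member locus (Mavs) was called and Irak2 lay at -0.31 (edgeR adjusted p = 0.0840), and the 5 called member regions were the same 5. Signs turned only for uncalled member loci. With flanks of 50 kb Irak3 lay at -0.039, Tbk1 at 0.021, Ticam1 at 0.033 and Traf6 at 0.17. By the gene span alone Ticam1 lay at 0.0016 and Traf6 at 0.42. By nearest gene Myd88 lay at 0.029. Leaving out single libraries, Myd88 ranged from -0.18 to 0.0026 (without cDC replicate 2) and Tbk1 from -0.42 to 0.16 (without pDC replicate 2). Irak3 lay at -0.089 with its called region left out, an alternative chosen after seeing the data that must move the fold towards cDCs. The causes of the other turns were not tested. No direction of a called member locus or region turned under the alternatives run.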
